A study of Oryza longistaminata with 12 samples.

Results

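In +N split, the root of 1 ramet of a pair stood in ammonium while the root of its partner was deprived. The 13 genes described here were higher in +N split roots than in every other root sampled. They are 13 of the 29335 gene models of the *O. longistaminata* count table, a wild rice whose young plants (ramets) stay joined by a rhizome. A gene was chosen when its mean in +N split roots was at least 3 CPM (the reads of a gene divided by all reads of the library, times 1000000) and its lowest +N split library was at least 1.3 times the highest of the 9 libraries of the other groups. In addition, the largest mean of the 3 other groups was at most 1.5 times the smallest, which selects genes that were similar in those groups. All 12 libraries were used in this choice, so the levels below are a description and the height of the +N split values is not a finding.

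Root RNA was sequenced from 4 groups with 3 libraries each, all of strain IRGC10404, collected 24 h after the start of treatment. The ramet pairs were excised from plants grown in ammonium solution. The paper does not state, for these libraries, what the pairs stood in between excision and treatment. In +N split the root stood in 2.5 mM NH4Cl, with its partner at 0 mM, and in −N split the root was that partner at 0 mM. In uniform pairs both roots received 0 mM (−N) or 2.5 mM (+N). For −N replicate 1 the title names −N but the treatment text a split pair, and it was kept in −N by its title. Without this library the choice gave 12 of the 13 genes, all but OL02T000572. The labels do not say whether the libraries of a group came from separate pairs, nor whether the roots on both sides of a split pair were numbered alike. The paper states that its graphs rest on ramet pairs prepared independently, without naming the sequenced libraries. Fold changes and their errors therefore measure the spread between these libraries.

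Libraries held 39071838 to 56252511 counted reads, and the chi-square per gene between replicates was 21.9 to 52.8, so no library was a copy of another. Genes described as photosynthetic, a sign of shoot tissue, summed to 1515 to 3413 CPM in +N split, 719 to 2319 CPM in −N split, 1559 to 2302 CPM in −N and 2448 to 3107 CPM in +N roots (26 genes, none at 0 in all libraries), so the +N split and +N ranges overlapped. Genes described with low oxygen and fermentation, also 26, summed to 16677 to 21155 CPM in +N split, 2394 to 3768 CPM in −N split, 7161 to 9744 CPM in −N, and 7049 to 9261 CPM in +N roots. Of these 26 genes 6 were called higher in +N split than in +N roots by edgeR, where 0.680% of all genes were. Both lists were drawn, by words of the descriptions, from genes that the study listed as differing between groups of these libraries. The share over all genes is therefore no reference for the 6 calls. The sum of the low oxygen and fermentation genes was high in the same libraries as the 13 genes, and its part in their levels was not tested. In whole roots, a change in the number of cells that express a gene and a change of RNA per cell cannot be told apart.

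Many plants with roots in uneven soil raise uptake and assimilation where nitrogen is present when another part of the root system lacks it. Assimilation of ammonium into amino acids draws on carbon skeletons and energy from sugars, so sugar metabolism and nitrogen supply are linked in roots. In this experiment, +N split and +N roots stood in the same ammonium solution and differed in the supply of the partner.

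Of 18921 genes with at least 3 CPM in +N split roots, 686 had all 3 +N split libraries above the other 9, and 113 of them met the ratio of 1.3. Similarity of the other groups was the criterion that removed most of these, since 100 of the 113 exceeded the limit of 1.5. In 96 of the 100, −N split had the lowest of the 3 other means. In the 113 genes the largest mean of the other groups was 1.15 to 51.8 times the smallest, with a median of 3.22. Leaving out genes with a name beginning with Ol and OL06T000607 removed none. The 13 genes thus lie at the low edge of a wide range, and the same choice made for the other groups gave 14 genes for −N split, 12 for −N and 1 for +N.

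**Figure D1:**
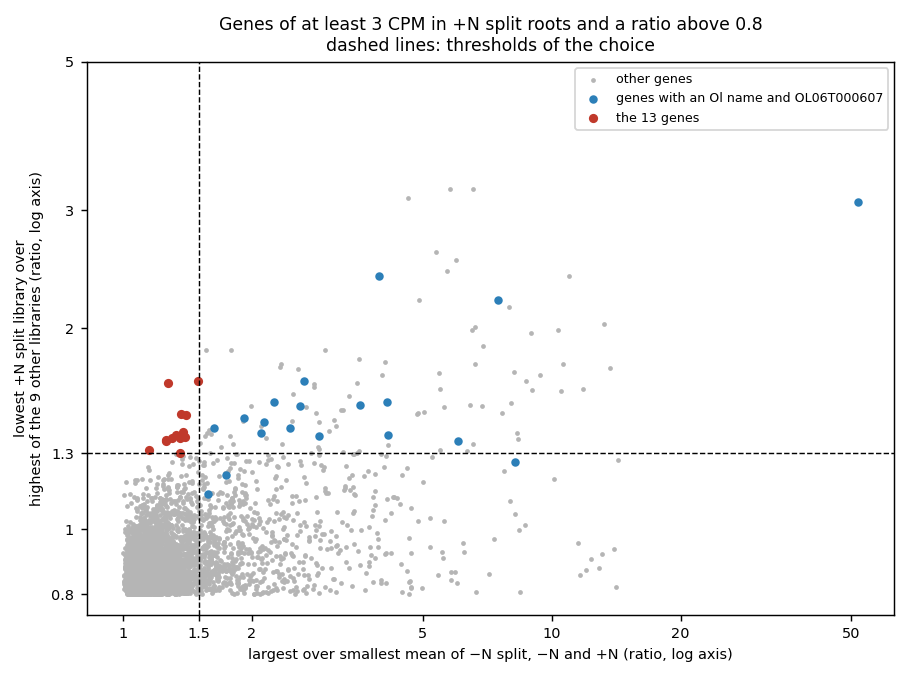
Each point is a gene, with the ratio of the largest to the smallest mean of −N split, −N and +N on the x axis and the ratio of the lowest +N split library to the highest of the 9 others on the y axis, both on log axes, for genes above 0.8 on the y axis. The 13 chosen genes (red) lie left of 1.5 and above 1.3, and most genes above 1.3 lie to the right, including those with an Ol name (blue).

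Values near the limits lay close together. Just inside the ratio of 1.3 were unmappedContigsT001642 (1.355), OL01T000793 (1.314) and OL05T001401 (1.303), and just outside were OL02T002225, a glutaredoxin (1.297), OL03T001726 (1.286) and OL01T003805, a zinc finger gene (1.283). OL02T002225 had 21.4, 25.6 and 20.2 CPM in +N split roots, against 11.2, 10.3 and 10.1 CPM under −N split, 8.93, 11.2 and 10.3 CPM under −N and 15.6, 12.6 and 12.2 CPM under +N. OL03T001726, described as pyrrolidone-carboxylate, had 93.7, 98.6 and 111 CPM in +N split roots, against 49.2, 44.6 and 47.2 CPM under −N split, 54.4, 51.4 and 64.3 CPM under −N and 59.9, 61.3 and 72.9 CPM under +N. OL01T003805 had 222, 234 and 257 CPM in +N split roots, against 104, 93.2 and 110 CPM under −N split, 124, 131 and 173 CPM under −N and 132, 152 and 155 CPM under +N. These genes just outside the ratio had the same arrangement as those just inside, with all +N split libraries on top. For the limit of 1.5, OL01T003964 (1.494) was inside, and OL08T001858, described as a No apical meristem protein (1.511), was outside. OL01T003964 leaves the set under TMM scaling (a trimmed mean of the log ratios between libraries), which gives it 1.559, or by DESeq2 size factors, which gives 1.573. The other 12 genes stayed with both scalings, and each scaling gave 18 genes in all. When each of the 12 libraries was left out in turn, OL03T003564, OL03T002878, OL08T001134 and OL01T000793 met the choice every time.

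The supplementary tables describe 10 of the 13 genes and leave 3 without a description. By their identifiers, 4 genes are on chromosome 1, 2 on chromosome 2, 3 on chromosome 3, 1 on chromosome 5, 2 on chromosome 8 and 1 on an unplaced contig. Mean levels in +N split roots were under 10 CPM in 4 genes and above it in 9, and the smallest count of any of them was 42 reads in any library and 112 reads in a +N split library. CPM does not correct for gene length, so levels are compared within a gene and not between genes.

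Enzyme genes are given first. OL01T003964, whose description says that it may help to maintain the flow of carbon into starch, had 176, 176 and 198 CPM in +N split roots, against 64.2, 67.1 and 63.1 CPM under −N split, 71.3, 63.4 and 86.4 CPM under −N and 93.2, 106 and 91.5 CPM under +N. It had the largest ratio of the 13 genes, 1.67 between the lowest +N split library and the highest other one. It averaged 184 ± 12.7 CPM in +N split roots, against 96.8 ± 7.76 CPM in +N roots (SD, n = 3 each), a log2 fold change of 0.98 (standard error 0.118, from the TMM-scaled fit in edgeR). Below these, −N and −N split overlapped, and all libraries of both were under the +N libraries.

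Phosphoglucomutase, which interconverts glucose 1-phosphate and glucose 6-phosphate and so joins starch and sucrose with glycolysis, is encoded by OL03T002878. This gene had 632, 623 and 679 CPM in +N split roots, against 330, 304 and 310 CPM under −N split, 301, 338 and 356 CPM under −N and 431, 455 and 399 CPM under +N. Its +N split libraries differed among themselves by 1.09 times, and its log2 fold change over +N was 0.65 (standard error 0.0855). As for OL01T003964, the +N libraries stood above all −N and −N split libraries, which overlapped each other.

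OL08T000082, a non-lysosomal glucosylceramidase, belongs to enzymes that release glucose from a membrane sphingolipid. In +N split roots it had 88.1, 83.4 and 79.6 CPM, against 30.7, 40.8 and 30.5 CPM under −N split, 46.8, 39.3 and 50 CPM under −N and 42.4, 53.5 and 43.5 CPM under +N. Here −N and +N libraries overlapped, with means of 45.3 ± 5.49 and 46.4 ± 6.16 CPM (SD, n = 3 each), and the log2 fold change of +N split over +N was 0.90 (standard error 0.141).

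OL03T002735 carries the glucose/sorbosone dehydrogenase domain, named after bacterial enzymes that oxidize sugars. Its levels were 121, 114 and 138 CPM in +N split roots, against 52.9, 48 and 66.3 CPM under −N split, 71.7, 70.6 and 81.6 CPM under −N and 76.5, 79.1 and 75 CPM under +N. The −N split libraries were all below the −N and +N libraries, which overlapped each other. Compared to +N, the log2 fold change of +N split was 0.75 (standard error 0.125).

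**Figure D2:**
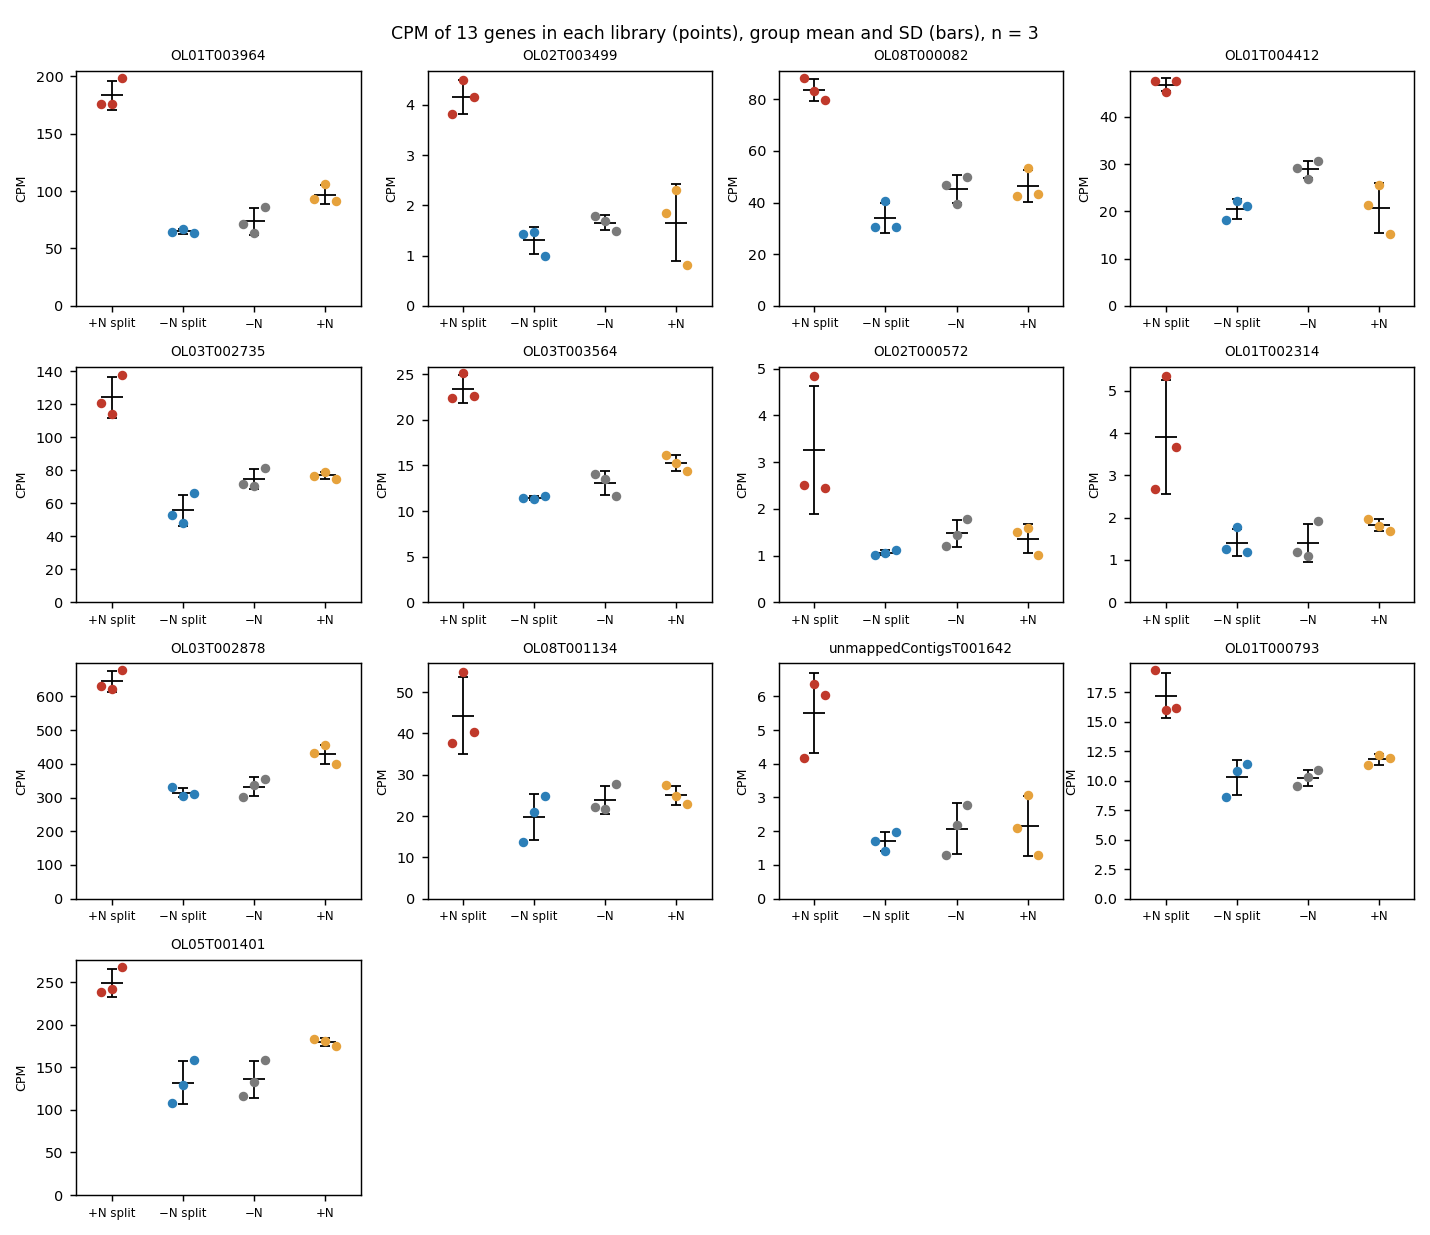
CPM of each of the 13 genes (1 panel each, own y axis from 0) in the libraries of +N split, −N split, −N and +N roots, left to right, with points for libraries and bars for the mean and SD (n = 3). The +N split points lie above all others in every panel, as chosen, while +N lies above −N split and −N in panels such as OL03T002878 (315 CPM in −N split, 428 CPM in +N) and not in OL01T004412.

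OL03T003564 encodes a protein with a NUDIX domain, a fold of hydrolases that cleave nucleoside diphosphate compounds. Its levels were 22.4, 25.1 and 22.6 CPM in +N split roots, against 11.4, 11.3 and 11.7 CPM under −N split, 14.1, 13.5 and 11.6 CPM under −N and 16.2, 15.3 and 14.4 CPM under +N. The −N split libraries hardly differed, with 11.5 ± 0.196 CPM (SD, n = 3), and all lay below the +N libraries. The log2 fold change of +N split over +N was 0.67 (standard error 0.0996).

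GH3 proteins include enzymes that couple amino acids to the hormones auxin and jasmonate, and OL01T000793 is described as a GH3 auxin-responsive gene. It had 19.4, 16 and 16.2 CPM in +N split roots, against 8.64, 10.8 and 11.4 CPM under −N split, 9.52, 10.3 and 10.9 CPM under −N and 11.3, 12.2 and 11.9 CPM under +N. Its 3 other group means were the most alike of the 13 genes, within 1.15 times, and its log2 fold change over +N was 0.60 (standard error 0.127).

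OL05T001401 belongs to the 2OG-Fe(II) oxygenases, iron enzymes that use oxygen and 2-oxoglutarate, a compound that ammonium assimilation also consumes. Reads gave 238, 242 and 268 CPM in +N split roots, against 108, 129 and 159 CPM under −N split, 116, 133 and 159 CPM under −N and 183, 181 and 175 CPM under +N. Its +N libraries were close together and above all −N and −N split libraries, and its log2 fold change over +N was the smallest of the 13, 0.53 (standard error 0.146).

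Isoleucyl-tRNA synthetase loads isoleucine onto its transfer RNA for protein synthesis, and OL02T000572 is described as such a gene. It had 2.5, 4.84 and 2.45 CPM in +N split roots, against 1.01, 1.06 and 1.11 CPM under −N split, 1.2, 1.44 and 1.78 CPM under −N and 1.5, 1.58 and 1.01 CPM under +N. A single library, +N split replicate 2, was 1.98 times the lowest of its group. Without that library the gene no longer met the choice, because its +N split mean fell under 3 CPM. Its ratio of lowest +N split to highest other library, 1.37, does not involve that library. Its log2 fold change over +N, 1.32, had a standard error of 0.294.

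For transport, OL08T001134 encodes an ABC transporter, a pump driven by ATP. It had 37.7, 54.9 and 40.4 CPM in +N split roots, against 13.8, 20.9 and 24.8 CPM under −N split, 22.3, 21.6 and 27.7 CPM under −N and 27.4, 24.9 and 22.8 CPM under +N. The libraries of the other 3 groups overlapped, and the log2 fold change of +N split over +N was 0.88 (standard error 0.205).

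The remaining genes have no known function in the tables. OL01T004412 carries DUF3411, a domain of unknown function, and had 47.5, 45.3 and 47.6 CPM in +N split roots, against 18.2, 22.2 and 21.2 CPM under −N split, 29.1, 26.9 and 30.6 CPM under −N and 21.3, 25.6 and 15.1 CPM under +N. Its +N split libraries were within 1.05 times of each other, the closest of the 13. Unlike most of the others it was highest in −N among the other groups, with all −N libraries above those of −N split and +N, and its log2 fold change over +N was 1.24 (standard error 0.161).

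Another 3 genes lack a description. OL02T003499 had 3.82, 4.5 and 4.16 CPM in +N split roots, against 1.44, 1.48 and 0.988 CPM under −N split, 1.79, 1.69 and 1.49 CPM under −N and 1.84, 2.31 and 0.823 CPM under +N. OL01T002314 had 2.68, 5.34 and 3.68 CPM in +N split roots, against 1.27, 1.78 and 1.18 CPM under −N split, 1.18, 1.1 and 1.92 CPM under −N and 1.96, 1.81 and 1.68 CPM under +N. For unmappedContigsT001642 the values were 4.16, 6.35 and 6.04 CPM in +N split roots, against 1.72, 1.41 and 1.98 CPM under −N split, 1.28, 2.17 and 2.79 CPM under −N and 2.1, 3.07 and 1.28 CPM under +N. All 3 genes were low in every group, and their log2 fold changes over +N were 1.39 (standard error 0.307) in OL02T003499, 1.16 (0.293) in OL01T002314 and 1.42 (0.334) in unmappedContigsT001642. The highest +N split library was 1.18 times the lowest in OL02T003499, 1.99 times in OL01T002314 and 1.53 times in unmappedContigsT001642.

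Across the 13 genes, the mean of +N split was 1.67 to 3.24 times that of −N split (median 2.28), 1.62 to 2.79 times that of −N (median 1.86) and 1.39 to 2.57 times that of +N (median 1.8). The highest library was +N split replicate 1 in 2 genes, replicate 2 in 6 and replicate 3 in 5, so no single library was the highest throughout. Over all genes tested, 3.08% had the 3 +N split libraries above the other 9, a property that the choice gave to all 13.

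By the quasi-likelihood test of edgeR over 25005 genes, at a Benjamini-Hochberg adjusted p under 0.05, 6 of the 13 genes were called upregulated in +N split roots when compared to +N, where 0.680% of all genes were. These were OL01T003964, OL01T004412, OL03T002878, OL03T003564, OL08T000082 and OL03T002735. The 7 genes not called were the 4 under 10 CPM in +N split roots, and OL05T001401 (249 CPM), OL08T001134 (44.3 CPM) and OL01T000793 (17.2 CPM). The count was 1 without +N replicate 3 or without +N split replicate 3, 3 when +N split replicate 2 was left out and 4 when +N replicate 1 was. Calls over all genes also fell in these settings, to 7 and 57 with +N replicate 3 or 1 left out in turn, and to 6 and 31 with +N split replicate 3 or 2 left out, against 170 with all libraries. The log2 fold change of OL01T003964 was 0.94 without +N replicate 3 and 0.91 without +N split replicate 3, against 0.98. With the DESeq2 Wald test, the count of genes called was 13. The study, from the same libraries, lists all 13 as upregulated in +N split over +N at a false discovery rate under 0.05. Compared to −N split roots all 13 were called higher (15.6% of all genes), and likewise compared to −N roots (12%). Because these comparisons formed the choice, the counts describe the 13 genes and are no test of them.

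Log2 fold changes over +N ran between 0.53 in OL05T001401 and 1.42 in unmappedContigsT001642, with a median of 0.90 against −0.02 over all genes tested. The medians were 1.31 over −N split (0.87 to 1.82) and 1.00 over −N (0.80 to 1.58). The 3 comparisons share the +N split libraries.

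**Figure D3:**
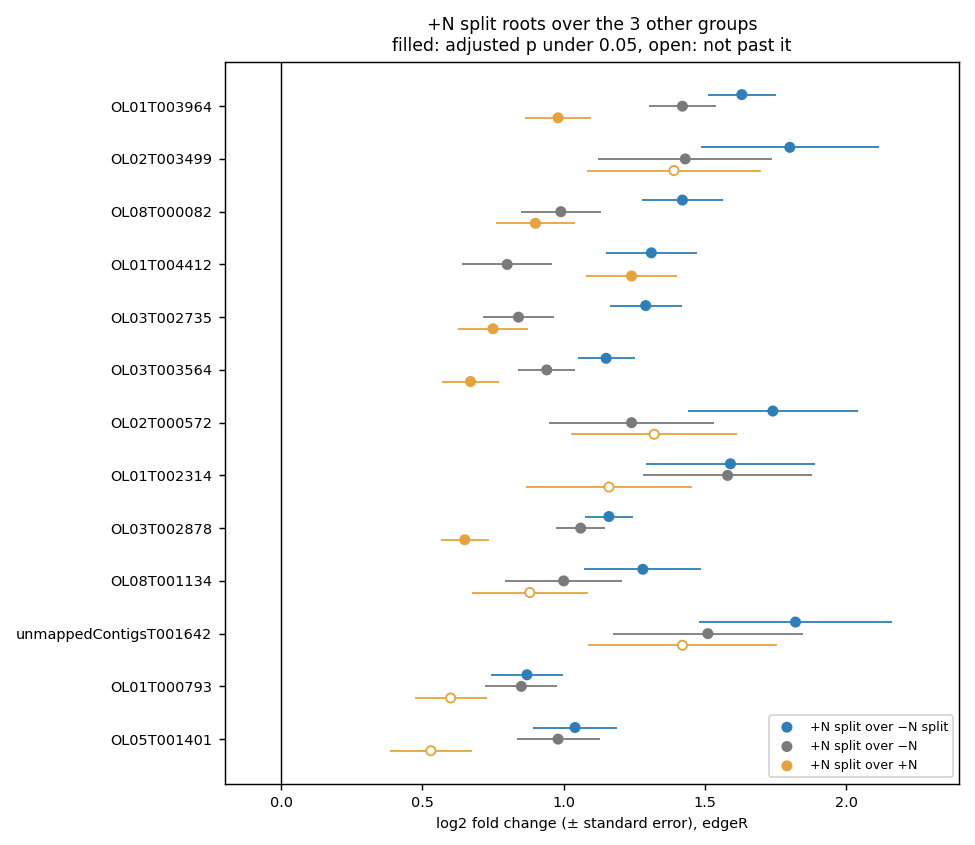
Log2 fold changes with standard errors (x axis, edgeR) of +N split over −N split (blue), −N (grey) and +N (orange) for each gene (y axis), filled where the adjusted p was under 0.05. The value over −N split was the largest of the 3 in every gene, and open points occur only for +N, in 7 genes.

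The term "only" holds within the limit of 1.5 and not beyond it. Among the 3 other groups, −N split had a lower mean than +N in all 13 genes and the lowest mean of the 3 in 11, and +N had the highest mean in 10. Compared to +N roots, 6 of the 13 genes were called downregulated in −N split roots by edgeR's quasi-likelihood test (12.2% of all genes), with log2 fold changes of all 13 between −0.65 and −0.08 (median −0.43). These were OL01T003964, OL03T002878, OL03T003564, OL03T002735, OL08T000082 and OL05T001401. In −N roots 3 were called lower than in +N (10.3% of all genes), namely OL01T003964, OL03T002878 and OL05T001401, and this count was 1 without −N replicate 1 or −N replicate 2. Between −N split and −N roots none was called by edgeR (4.00% of all genes), and 3 had an unadjusted p under 0.05. The DESeq2 Wald test called 2 of the 13, and 1880 of all 25005 genes tested. OL01T004412, not called lower in −N split or −N than in +N, differed least in −N split over +N, by −0.08 on the log2 scale (standard error 0.161).

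Own supply and partner supply can be crossed in this design. The difference between +N split and +N was set against that between −N and −N split, in which the partner is also deprived in one group and supplied in the other. None of the 13 genes was called by edgeR's quasi-likelihood test of this interaction, which called 0.0120% of all genes higher. The DESeq2 Wald test called 2 of the 13, and 128 of all 25005 genes tested. An unadjusted edgeR p was under 0.05 in 10 of the 13. All 13 estimates were positive, 0.31 to 1.15 with a median of 0.59 on the log2 scale, a sign that the choice largely fixes. Because the choice shaped these estimates, the 10 unadjusted p-values are no test of the 13 genes. In deprived roots, −N split over −N, which is partner supplied over partner deprived, was −0.51 to −0.01. All 13 estimates were thus also higher with a deprived partner, though edgeR called none. Over all genes tested, 53.1% of the estimates of −N split over −N were positive. In OL01T002314 (−0.01, standard error 0.306) and OL01T000793 (−0.02, standard error 0.128) the estimate was within its error. The CPM mean of these genes was slightly higher in −N split than in −N.

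The choice was also repeated with 1 +N split library left out, while the 9 libraries of the other groups were still used. With +N split replicate 1 left out, the same thresholds on the other 2 libraries chose 29 genes, and in 23 of them (79.3%) replicate 1 lay above all 9 libraries of the other groups (7.44% of all genes). With replicate 2 left out, 14 genes were chosen and replicate 2 lay above in all 14 (10.5% of all genes), and with replicate 3 left out this held for all 24 (9.51% of all genes). The 3 choices hold 67 cases of 42 distinct genes, and 38 of the cases are the 13 genes, which had to lie above by the choice itself. Because the 9 libraries took part in picking the genes, the shares over all genes are no reference for these counts, and nothing is read from them.

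Of the 6 genes in which replicate 1 was not above the 9 others, 5 were under 10 CPM in that library. OL09T000513 had 3.15 CPM in replicate 1, against at least 11.6 CPM in the other +N split libraries and a highest value of 3.51 CPM in the other groups. The sixth, the TLC ATP/ADP transporter gene unmappedContigsT001600, had 93 CPM in replicate 1, with 133 CPM or more in the other +N split libraries and up to 95.2 CPM elsewhere. OL01T003142, described as GH3, passed the 9 others in replicate 1 but missed the ratio of 1.3, and OL03T002890, a phosphoglucomutase gene, did so in replicate 2.

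**Figure D4:**
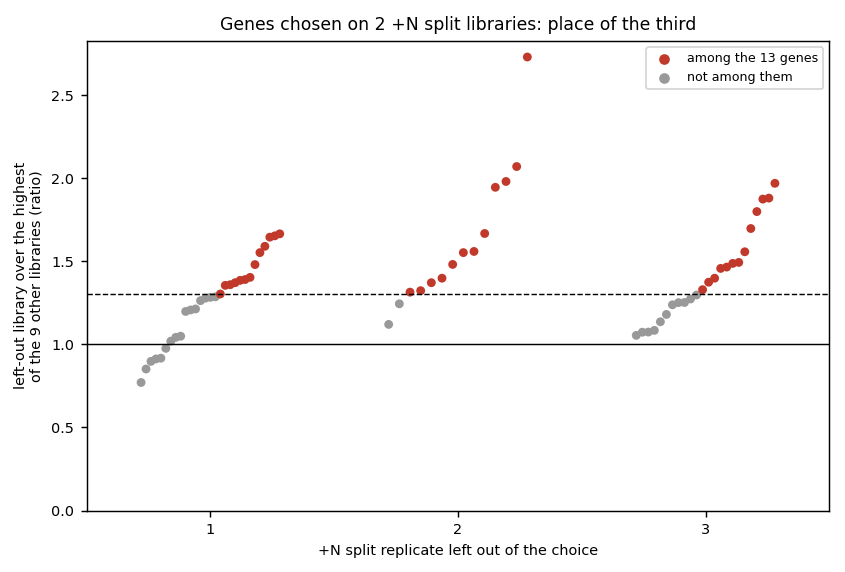
Genes chosen without +N split replicate 1, 2 or 3 (x axis), each at the ratio of the left-out library to the highest of the 9 libraries of the other groups (y axis). Points above 1 (solid line) are 23 of 29, 14 of 14 and 24 of 24, and red points, the 13 genes, lie above the dashed line at 1.3 by construction.

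The tables give some of the 13 genes the same description as other genes. DUF3411, phosphoglucomutase and GH3 had 1 such other gene each in the tables read. OL01T004405 also carries DUF3411 and is 7 gene numbers from OL01T004412. It had 48, 49.8 and 52.3 CPM in +N split roots, against 16.5, 20 and 20.3 CPM under −N split, 30.1, 24.4 and 34.4 CPM under −N and 21.7, 25.3 and 16 CPM under +N. Both genes had the same order of groups, and OL01T004405 was left out only because its other means differed by more than 1.5 times. Its log2 fold change over +N was 1.31 (standard error 0.173, Benjamini-Hochberg adjusted p = 0.0116 by the quasi-likelihood test of edgeR).

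OL03T002890, the other phosphoglucomutase gene, is 12 gene numbers from OL03T002878. It had 642, 608 and 680 CPM in +N split roots, against 335, 299 and 310 CPM under −N split, 324, 343 and 374 CPM under −N and 437, 489 and 421 CPM under +N. The values of both genes were nearly the same in each group, and the log2 fold change over +N was 0.58 (standard error 0.0896, adjusted p = 0.0144 by the same test in edgeR). The sources used here do not give how reads with several matches were counted, and such copies may share or split them. The lists of the tables were chosen by the study on these libraries, so these genes are not independent evidence.

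OL01T003142, a GH3 gene, had 84.6, 123 and 103 CPM in +N split roots, against 40.7, 52.9 and 59.1 CPM under −N split, 47.7, 40.1 and 59.5 CPM under −N and 62.7, 61.5 and 67 CPM under +N. Its ratio of 1.26 was just under the threshold. OL08T001132, an ABC transporter gene near OL08T001134, had 91.2, 108 and 96 CPM in +N split roots, against 56.3, 70.3 and 93.6 CPM under −N split, 61.1, 62.2 and 79.2 CPM under −N and 79.6, 70.7 and 71.6 CPM under +N. In this gene +N split and −N split overlapped, and it was not called over +N (adjusted p = 0.252), nor was OL01T003142 (adjusted p = 0.0835, same edgeR test for both).

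Beside OL02T000572 lie OL02T000571 and OL02T000573, both with its description. OL02T000571 had 1.92, 6 and 2.3 CPM in +N split roots, against 1.75, 1.6 and 2.3 CPM under −N split, 3.61, 2.13 and 4.88 CPM under −N and 1.81, 1.62 and 1.46 CPM under +N. OL02T000573 had 3.08, 3.71 and 3.52 CPM in +N split roots, against 2.03, 3.41 and 3.15 CPM under −N split, 3.97, 3.16 and 4.82 CPM under −N and 2.19, 2.35 and 1.77 CPM under +N. Both overlapped between +N split and −N, unlike OL02T000572, and edgeR's quasi-likelihood test called neither over +N (adjusted p = 0.274 for OL02T000571 and 0.188 for OL02T000573).

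**Figure D5:**
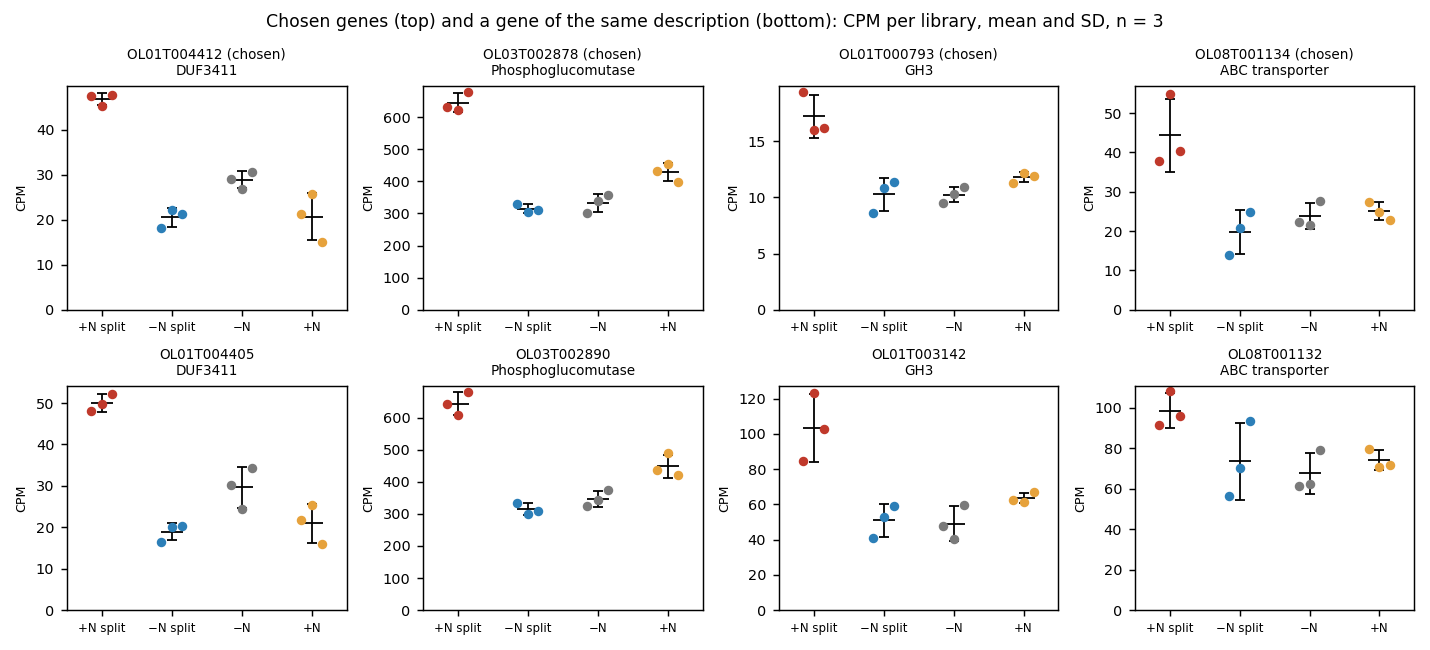
CPM per library (points) with the mean and SD (n = 3) of 4 of the 13 genes (top) and a gene of the same description (bottom), in +N split, −N split, −N and +N roots, left to right, each panel with its own y axis from 0. The DUF3411 and phosphoglucomutase pairs match in level and order, the GH3 genes differ in level, and OL08T001132 overlaps between +N split and −N split.

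Larger families had differences in both directions. Among 20 other 2OG-Fe(II) oxygenase genes the log2 fold change of +N split over +N was −0.69 to 1.38 (median −0.14), among 8 other ABC transporter genes −0.64 to 0.58 (median 0.34) and among 3 other NUDIX genes −0.13 to 0.21 (median −0.06). None of these genes was called by edgeR in this comparison (0.680% of all genes were called higher), while 10 had an unadjusted p under 0.05. The DESeq2 Wald test called 4, and called 568 of all 25005 genes tested higher. With so few genes in these families, all from lists the study chose on these libraries, neither the calls nor their absence is read further.

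Genes next to the 13 by number were also examined. Of the genes up to 2 positions away on each side, 48 were tested, and edgeR's quasi-likelihood test called none over +N. By this test 0.680% of all genes were called higher. At an unadjusted p under 0.05 by the same test, 7 of the 48 were higher and 2 lower. The DESeq2 Wald test called 3 of them higher, and 568 of all 25005 genes tested. The median log2 fold change of the 48 was −0.01, against −0.02 over all genes, and 22 of 48 were positive (45.8% of all genes were). Over −N split 11 of the 48 were called higher and over −N 7, against 15.6% and 12% of all genes. Large differences without a call stood beside OL02T003499, and these genes were singled out after their values were seen. OL02T003496, of the NmrA-like family, had 170, 132 and 209 CPM in +N split roots, against 1.04, 9.8 and 8.23 CPM under −N split, 50.9, 18.9 and 32.8 CPM under −N and 16.7, 35.3 and 26.1 CPM under +N. OL02T003497, a reductase, had 153, 198 and 247 CPM in +N split roots, against 3.52, 3.31 and 3.43 CPM under −N split, 69.3, 16.2 and 39.2 CPM under −N and 31.1, 75.3 and 29.6 CPM under +N. Unlike OL02T003499, both were lower in every −N split library than in any −N or +N library.

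By the words of their descriptions, 3 of the 13 genes fall in a list of related genes. In the sugar and organic acid list (37 genes, with OL03T002878), edgeR called 18 higher in +N split over +N (0.680% of all genes), with a median log2 fold change of 0.56 against −0.02 over all genes. Over −N split 32 were called higher (15.6% of all genes, median 1.90), and over −N also 32 (12% of all genes, median 1.42). The phosphoglucomutase gene OL03T002878 had 1.16 over −N split and 1.06 over −N, below both medians. In the membrane transport list (178 genes, with OL08T001134), 8 were called higher and 1 lower over +N (median 0.06), and in the list of redox and detoxification enzymes (118 genes, with OL05T001401) 4 were called higher (median −0.06), beside the same 0.680% of all genes called higher. The lists were drawn from tables that the study chose on these libraries, so their direction is not independent evidence. In the other lists no gene met the choice. Among them was nitrogen assimilation and amino acid synthesis (39 genes, 15 called higher over +N beside 0.680% of all genes, median 0.50). With 13 of 29335 gene models chosen, the absence from a list of this size is not read further.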

How the data were processed

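The authors used HISAT2 to map the root reads and featureCounts to assign them to gene models, and deposited the unnormalized counts of 12 libraries. They also deposited log2 CPM, which was checked to equal edgeR's log2 CPM of the same counts with a prior count of 2 and was not tested. The strand setting, tool versions and treatment of reads with several matches were not given in the sources used here. CPM were computed from the counts and the genes chosen from them. In R 4.3.3, edgeR 4.0.16 kept 25005 genes (filterByExpr, minimum count 10, total count 15), scaled libraries by TMM and fitted a mean per group to all 12 libraries. Comparisons used the quasi-likelihood test with Benjamini-Hochberg adjustment over all genes kept. With 3 libraries against 3, an exact permutation test cannot give a p below 0.1, and the precision of a value is set by these replicates and by its count of reads.

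The genes and lists were chosen with earlier results of these data known. Every library value is given for the 12 genes with the largest ratio, for genes in a list and for the 3 just inside and 3 just outside the ratio. Alternatives were other scalings, thresholds and filters, the DESeq2 1.42.0 Wald test, a fit of the 6 libraries compared, the replicate number as a block, and each library left out. Descriptions and names came from the supplementary tables, some read in part, and their columns of fold changes and p-values were not used. No genome was used here. The pipeline was tested on simulated data.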

Additional observations from a re-analysis of the deposited data

How the results depend on the processing

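The number of genes chosen was 29 at a ratio of 1.2 and 2 at 1.5 in place of 1.3, and 1 at a stricter limit on the other means and 27 at a limit of 2 in place of 1.5. It was 18 with TMM or DESeq2 size factors, 14 and 9 at minima of 1 and 10 CPM, and 12 to 29 with a library left out, the highest values being 29 without +N split replicate 1, 24 without +N split replicate 3, 21 without +N replicate 2 and 20 without +N replicate 1.

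Of the 13 genes, 6 were called higher in +N split than in +N roots, against 13 with the DESeq2 Wald test, 1 at an adjusted p under 0.01, and 1 to 8 with a library left out. Over all genes, the DESeq2 Wald test called 568 genes higher in this comparison and edgeR 170, and for the interaction 128 and 3. The cause was not tested. Genes called between −N and +N numbered 3, against 1 at an adjusted p under 0.01 and 1 to 3 with a library left out, and between −N split and +N 4 to 6. Between −N split and −N none was called, against 2 with the DESeq2 Wald test, 1 with the replicate number as a block and 0 to 1 with a library left out (1 without +N replicate 3, and 1 without either replicate 2 or replicate 3 of −N split). For the interaction, DESeq2 called 2 and the left-out libraries 0 to 0. Over −N split and over −N all 13 stayed called throughout.

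Correlations of the deviations of same-numbered libraries were between −0.24 and 0.33, with 7 of 18 over 0.1. In 8 of the 18 the own number gave the highest value. For +N with +N split they were 0.281, 0.073 and 0.243, all above those of different numbers. For −N split with −N they were −0.239, −0.162 and 0.075. Whether same-numbered libraries share a source was not tested. With the replicate block the count over +N was also 6 and no other count of calls changed than the one given. Of 234 log2 fold changes of single genes over +N under the alternatives, 206 kept their side of the threshold, 15 lost the call, 13 gained it and 0 changed direction. Leaving out +N split replicates in turn placed the left-out one above the 9 others in 61 of 67 cases (42 distinct genes), and with TMM in 89 of 98 cases. Of the 67 cases, 38 are the 13 genes, which had to lie above by the choice. The 9 libraries also took part in picking the genes, so nothing is read from either count. Of the 6 genes called over +N, each lost its call without at least 1 library, with adjusted p up to 0.084 (edgeR's quasi-likelihood test). The smallest count behind a value was 42 reads, and whether depth sets which genes were called was not tested.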
